A study of Homo sapiens with 6 samples.

Results

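The cell cycle regulators described here are the cyclins, the cyclin-dependent kinases (CDKs), their inhibitors, the retinoblastoma (RB) and E2F proteins and their close partners. They were chosen by name as 45 genes, with earlier results of these data known. Every probe set whose only gene symbol is on that list was taken. This gave 119 probe sets for 44 genes, out of 49395 probe sets and 18132 genes in all. CDKN2C was not analysed here. The cells were 786-O, an established human line from a kidney renal cell carcinoma. In the shERCC6L group, 3 arrays came from cells with a lentiviral short hairpin RNA (shRNA) against ERCC6L, the gene of a DNA translocase that binds the threads joining sister chromatids in anaphase. The shNC group has 3 arrays of control cells, where NC in the label is taken as a control hairpin, since the genotype field calls them control. The treatment text of the control samples, too, mentions just the ERCC6L hairpin. The number of hairpins, the time after infection and whether replicates were separate cultures are not labelled. The p-values therefore rest on the scatter of 3 arrays a group, and that scatter could be technical.

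Cyclins bind and switch on CDKs, and the cyclin type follows the phase of the cycle. D-type cyclins with CDK4 and CDK6 phosphorylate the pocket protein RB, which then lets go of E2F factors, and these switch on the genes of S phase, among them the E-type cyclins that bind CDK2. In G2 and mitosis CDK1 with B-type cyclins takes over, and FOXM1 and MYBL2 drive transcription of the late genes. Inhibitor proteins of the CIP/KIP family (p21, p27, p57) and of the INK4 family hold the kinases back. In renal carcinoma of the clear cell type, CCND1 is known as a gene raised by hypoxia-inducible factors.

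The deposited signal is linear and has 1 value per probe set and array. Median signals lay between 60.04 and 61.21 on the shERCC6L arrays and between 60.37 and 61.56 on the shNC arrays. Changes are given as log2(signal + 16), shERCC6L minus shNC, on each gene's brightest probe set, tested with limma and adjusted by Benjamini-Hochberg over all 18132 genes. ERCC6L itself read 97.59, 97.49 and 97.83 in shERCC6L and 239.9, 244.3 and 261.4 in shNC, with a mean in shERCC6L at 39.3% of that in shNC (log2 change -1.22 ± 0.04, SE; limma adjusted p = 1.6e-07). Of 13 measured markers of renal carcinoma and proximal tubule, 10 reached the median level of all genes, PAX8 and VIM among them, while the tubule markers LRP2, CUBN and AQP1 did not. Of these 13, 2 were higher (PAX8, KRT18) and 5 lower (CDH6, CDH2, NNMT, VCAM1 and EPAS1, by -0.25 to -0.66 on the log2 scale), and the list summed to 27300 to 28100 in shERCC6L and 29630 to 30060 in shNC. Fibroblast markers were below that level in 7 of 7 cases, with summed signals of 184.7 to 189.1 in shERCC6L and 213.5 to 220.6 in shNC, and 2 of them, COL1A1 and PDGFRA, were lower in shERCC6L. Endothelial markers were below it in 6 of 6 cases, at 264.9 to 273.8 in shERCC6L and 272.8 to 286.5 in shNC. Of 5 immune markers only CD68 reached it and was higher in shERCC6L, the list summing to 202.8 to 211.4 in shERCC6L and 173.4 to 193.3 in shNC, while the defining marker PTPRC read 7.21 in shERCC6L and 7.31 in shNC. The part of these differences in the results was not tested.

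Among the cell cycle regulators more were higher than lower in shERCC6L cells, most by small amounts. Of the 44 genes, 22 were higher, 4 lower and 18 did not pass the adjusted threshold of 0.05. Across all genes 31.6% passed, 18.2% higher and 13.4% lower, against 50% higher and 9.09% lower for the regulators. The regulators were also brighter than most genes, with 40 of 44 at or above the median level, where 32.8% of all genes were higher and 19.6% lower. The 40 bright regulators gave 52.5% higher and 10.0% lower. The median log2 fold change was 0.110 for the regulators and -0.011 for all genes (0.036 for the brighter genes just named). Arrays of the groups did not overlap for 28 regulators (63.6%), against 43.4% of all genes. Among the bright ones alone this was 67.5% of regulators and 64.5% of all genes, which is close. The call came with an absolute log2 change of at least 0.25 in 15 regulators (34.1%), against 14.4% of all genes, and among the bright ones in 35% of regulators and 25.1% of all genes. The largest falls were in the CDK inhibitor gene CDKN1C, the kinase gene CDK2 and the transcription factor gene FOXM1, and the largest rises in CCND3, E2F7, CCNE2 and E2F4. In bulk RNA, a change in the share of cells in a phase and a change in the transcript per cell cannot be told apart.

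**Figure D1:**
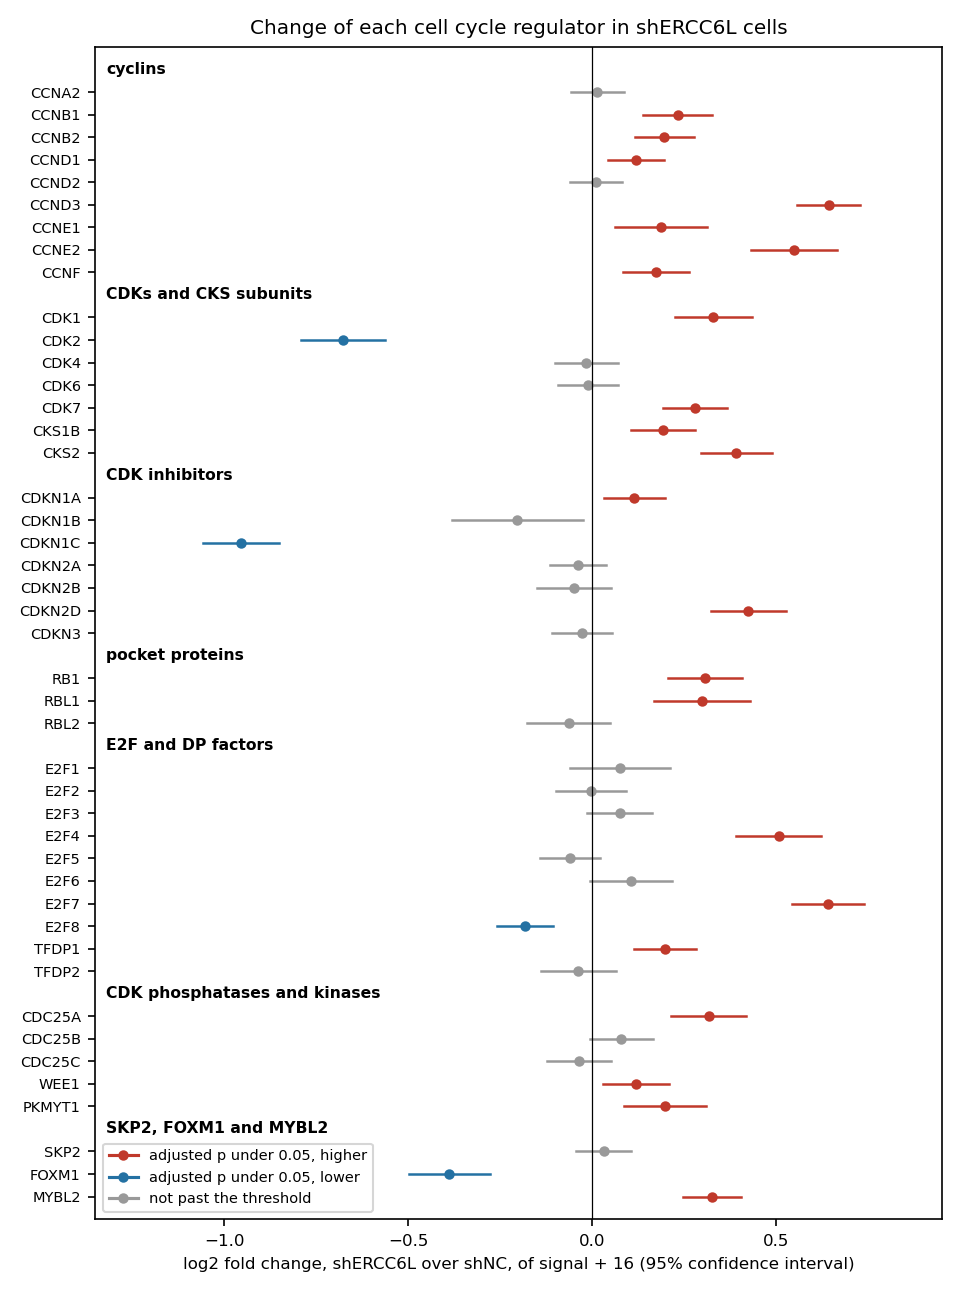
Log2 fold change of signal + 16, shERCC6L over shNC, for the brightest probe set of each of the 44 genes, in order of role. Points are limma estimates from 3 arrays per group, lines are 95% confidence intervals and colours mark the call at an adjusted p under 0.05. Most coloured points lie right of 0, while CDKN1C at -0.95 and CDK2 at -0.68 lie farthest left.

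Among the cyclins 7 of 9 were higher (77.8%) and 0 lower. Of the 9, 8 were at or above the median level, where 32.8% of all genes were higher and 19.6% lower. CCND3, a D-type cyclin that pairs with CDK4 and CDK6, read 523.2, 551.5 and 533.3 on the shERCC6L arrays and 343.3, 325.9 and 343.7 on the shNC arrays. Each shERCC6L array was above each shNC array, and the log2 fold change was 0.64 ± 0.04 (SE; limma adjusted p = 3.5e-06). Its other probe set was dim, at 8.38 in shERCC6L and 9.14 in shNC, and did not pass. The average of both gave 0.30. CCNE2, an E-type partner of CDK2, read 213.6, 224.3 and 231.5 in shERCC6L and 139.7, 159.7 and 143.8 in shNC. The groups did not overlap here either, and the log2 change was 0.55 ± 0.05 (limma adjusted p = 5.4e-05). Its other probe set gave 0.65 (limma adjusted p = 6.4e-06 over all probe sets), so both measured a rise. The second E-type gene, CCNE1, averaged 152.3 ± 10.6 in shERCC6L and 131.8 ± 8.09 in shNC (SD, n = 3 each), a log2 change of 0.19 ± 0.06 (SE; limma adjusted p = 0.03). Its other probe set, at 19.73 in shERCC6L and 18.63 in shNC, did not pass, and the average of both gave 0.12.

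CCND1 was among the brightest regulators, at 2793, 2878 and 2893 in shERCC6L and 2599, 2636 and 2649 in shNC. The rise on this probe set was small, at 0.12 ± 0.03 (SE; limma adjusted p = 0.023), but the other 3 probe sets gave 0.17, 0.31 and 0.27 and also passed, and their average with the brightest gave 0.22. The brightest probe set alone did not pass when any array other than shERCC6L replicate 1 was left out, with adjusted p between 0.051 and 0.078. CCNE1 lost its call in the same way without shERCC6L replicate 2 or 3 or shNC replicate 2 or 3, at adjusted p between 0.076 and 0.099. Both stayed on the higher side in each of these fits. The remaining D-type gene, CCND2, stood far below the median signal of the arrays, at 16.53 to 17.02 in shERCC6L and 16.59 to 16.65 in shNC.

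The mitotic cyclins moved less than CCND3 and CCNE2. CCNB1, whose protein activates CDK1 at entry into mitosis, read 1315, 1368 and 1358 in shERCC6L and 1121, 1206 and 1109 in shNC, a log2 change of 0.23 ± 0.04 (limma adjusted p = 0.0023). CCNB2 gave 0.20 and CCNF, which encodes a substrate receptor of an SCF ubiquitin ligase rather than a kinase partner, 0.17. The other CCNF probe set gave 0.065 and did not pass. CCNA2, the cyclin of S and G2 phase, did not pass. It read 935.2, 922.4 and 945.2 in shERCC6L and 918.8, 930.8 and 926 in shNC, with a 95% confidence interval of the log2 change from -0.06 to 0.09.

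All 7 genes for CDKs and their CKS subunits were at or above the median level. There 32.8% of all genes were higher and 19.6% lower. Of the 7, 4 were higher and 1 lower (57.1% and 14.3%). The fall was in CDK2, the kinase partner of cyclins E and A. It read 158.3, 182.8 and 179.1 in shERCC6L and 283.9, 286 and 289.2 in shNC, so that the shERCC6L mean was 60.6% of the shNC mean. The 3 shNC arrays lay close together and far above the shERCC6L arrays, with a log2 change of -0.68 ± 0.05 (SE; limma adjusted p = 1.5e-05). The other CDK2 probe sets gave -0.86 and -0.64 and passed as well. CCNE2 and CDK2, whose proteins form a complex, changed in opposite directions at the transcript level.

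CDK1, the mitotic kinase, rose. Its signals were 2900, 2950 and 3188 in shERCC6L and 2301, 2476 and 2404 in shNC, a log2 change of 0.33 ± 0.05 (limma adjusted p = 5.9e-04). A second probe set gave 0.42, and the remaining one, below the median level at 73.89 in shERCC6L and 73.9 in shNC, gave -0.00 and did not pass. CDK7, which phosphorylates the activation loop of other CDKs, read 317.2, 337.7 and 341.7 in shERCC6L and 271.9, 265.9 and 274.1 in shNC, at 0.28 ± 0.04 (limma adjusted p = 5.0e-04). All CDK1 and CDK7 values of shERCC6L on these brightest probe sets exceeded those of shNC. CKS2, a small CDK-binding subunit, read 3663, 3716 and 4001 in shERCC6L and 2833, 2956 and 2871 in shNC, at 0.39 ± 0.04 (limma adjusted p = 1.2e-04). Its paralog CKS1B, which helps SKP2 to recognise p27, rose by 0.19, with 2 of its 3 probe sets past the threshold.

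The G1 kinases did not pass. CDK4 had 1363, 1450 and 1399 in shERCC6L and 1440, 1381 and 1440 in shNC, with an interval of the log2 change from -0.10 to 0.07. CDK6 had 1213, 1249 and 1285 in shERCC6L and 1250, 1278 and 1249 in shNC, with an interval from -0.09 to 0.07. The groups overlapped for both genes, and none of the 4 probe sets of either gene passed.

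**Figure D2:**
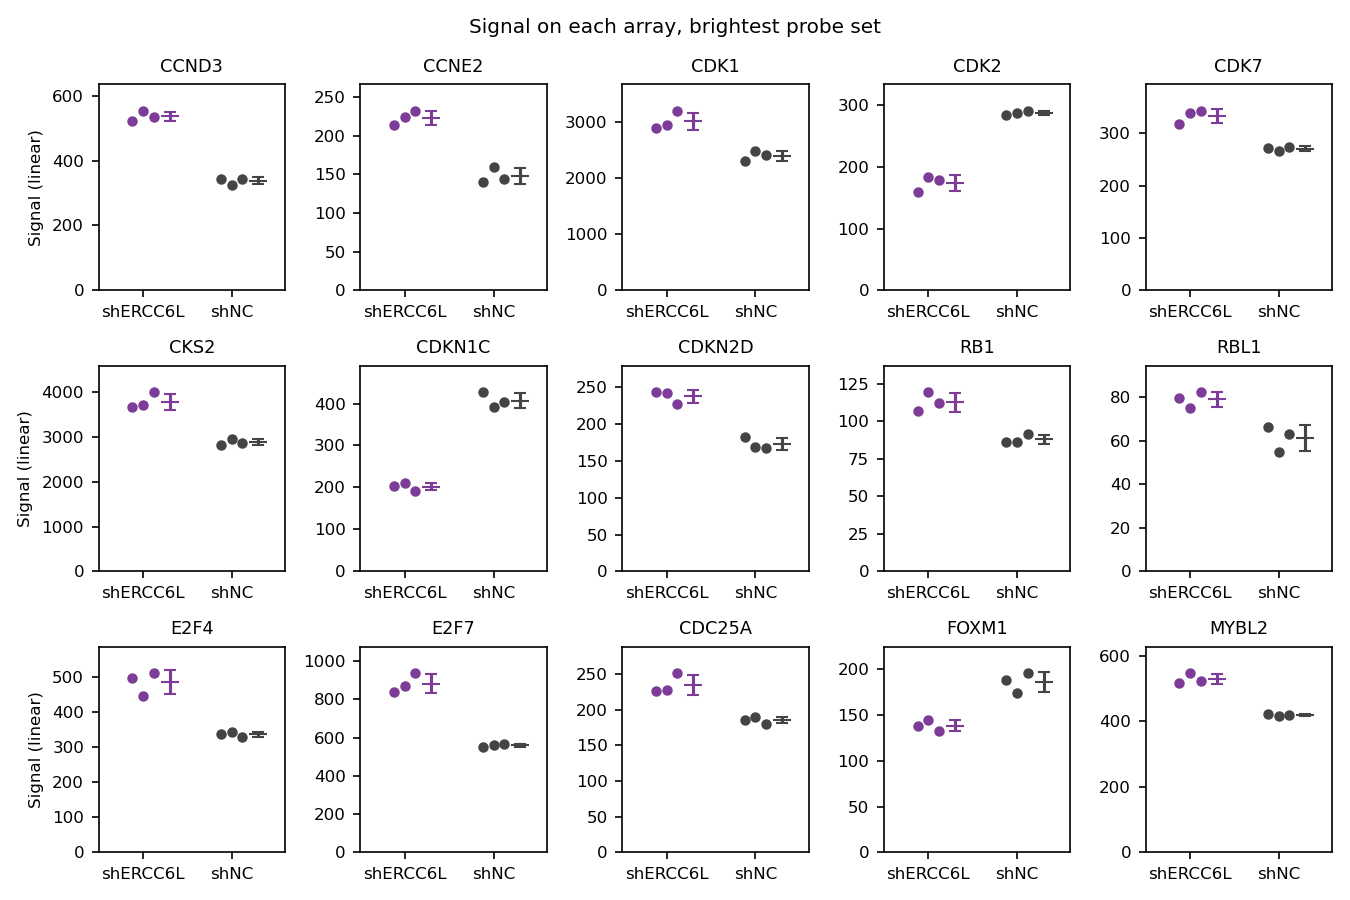
Linear signal of the brightest probe set on each array for the 15 genes past the threshold with an absolute log2 fold change of at least 0.25. Points are arrays, and bars are mean ± SD of 3 arrays. In every panel the 3 shERCC6L points and the 3 shNC points do not overlap, which the choice of genes by threshold and size makes likely. The shERCC6L points lie lower in the panels of CDK2, CDKN1C and FOXM1.

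Of 7 measured CDK inhibitors, 2 were higher and 1 lower (28.6% and 14.3%), and 4 did not pass. Of the 7, 5 were at or above the median level, where 32.8% of all genes were higher and 19.6% lower. All genes together gave 18.2% and 13.4%. CDKN1C, which encodes p57, an inhibitor of CIP/KIP type from an imprinted locus, had the largest change of all the regulators. It read 203.4, 211 and 192.4 in shERCC6L and 426.6, 390.9 and 402.9 in shNC, a shERCC6L mean of 49.7% of the shNC mean. The log2 change was -0.95 ± 0.05 (SE; limma adjusted p = 1.1e-06), with an interval from -1.06 to -0.85. The other 2 probe sets fell by more, at -1.17 and -1.09. CDKN2D, an INK4 inhibitor of CDK4 and CDK6, moved the other way, at 242.9, 242.5 and 226.5 in shERCC6L and 182.5, 168.1 and 167.8 in shNC (log2 change 0.42 ± 0.04; limma adjusted p = 1.0e-04). It has a single probe set.

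CDKN1A, the p21 gene, averaged 325.2 ± 5.18 in shERCC6L and 299.5 ± 10.1 in shNC (SD, n = 3 each), a log2 change of 0.11 ± 0.04 (SE; limma adjusted p = 0.042). This call ended when any array other than shNC replicate 1 was left out (adjusted p between 0.069 and 0.14), and its second probe set, at 0.12, did not pass. The call held in 7 of 15 alternative fits, over which the adjusted p in limma reached 0.18. CDKN1B, the p27 gene, read 513.1, 523.3 and 587.1 in shERCC6L and 582.7, 710.5 and 589.1 in shNC. The groups overlapped and the log2 change of -0.20 had an adjusted p of 0.081 in limma, although its unadjusted interval ran from -0.38 to -0.03. Without shERCC6L replicate 3 it passed, at -0.26 (adjusted p = 0.039), while the average of its 2 probe sets gave -0.08. CDKN1B did not pass in 12 of 15 alternative fits and was lower in the others, with a lowest adjusted p of 0.032 in limma. CDKN2A and CDKN2B, neighbours on chromosome 9 that encode INK4 inhibitors, were dim in both groups. CDKN2A read 21.39 to 22.52 in shERCC6L and 22.23 to 23.41 in shNC, and CDKN2B 12.64 to 15.89 in shERCC6L and 14.68 to 15.48 in shNC. CDKN3, a phosphatase that acts on CDK2, averaged 1931 ± 51.5 in shERCC6L and 1969 ± 36.6 in shNC, and none of its 8 probe sets passed.

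Of the pocket proteins, which bind and restrain E2F factors, 2 of 3 were higher (66.7%) and 0 lower. All genes gave 18.2% and 13.4%, and those at or above the median level 32.8% and 19.6%. RB1 read 106.6, 119.2 and 111.8 in shERCC6L and 86.42, 85.94 and 91.35 in shNC, a log2 change of 0.31 ± 0.04 (SE; limma adjusted p = 6.7e-04). Of its 3 probe sets, 2 passed. RBL1, which encodes p107, read 79.75, 75.31 and 82.36 in shERCC6L and 66.44, 54.81 and 63.13 in shNC, at 0.30 ± 0.06 (limma adjusted p = 0.0035), and all 3 of its probe sets passed. RBL1 lay below the median level, and with a pseudocount of 64 in place of 16 its change was 0.19. RBL2, which encodes p130, the pocket protein of resting cells, did not pass on any of its 4 probe sets, at -0.06 on the brightest.

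The E2F and DP factors gave 3 higher and 1 lower of 10 (30% and 10%). All 10 were at or above the median level, where 32.8% of all genes were higher and 19.6% lower. Neither share of these factors was above that of all genes at this level. The activating members E2F1, E2F2 and E2F3 did not pass on their brightest probe sets, at 0.07, -0.00 and 0.07. Of the 3 E2F3 probe sets, 1 passed, at 0.18. E2F4, which acts mainly with pocket proteins as a repressor, read 498.1, 445.8 and 510.2 in shERCC6L and 337.7, 342 and 328.5 in shNC. The log2 change was 0.51 ± 0.05 (SE; limma adjusted p = 7.8e-05), and its other probe set gave 0.54. E2F7, an atypical repressor of E2F targets, read 840.4, 869 and 935.8 in shERCC6L and 551.8, 562.4 and 564.5 in shNC, at 0.64 ± 0.04 (limma adjusted p = 8.7e-06). Its other probe set, at 114.6 in shERCC6L and 110.4 in shNC, gave 0.05 and did not pass, so that the average was 0.34. E2F8, the other atypical repressor, went the opposite way from E2F7. It read 112.9, 115.3 and 113.6 in shERCC6L and 134.8, 128.6 and 130.7 in shNC, a log2 change of -0.18 ± 0.03 (limma adjusted p = 0.0028), while its other 2 probe sets, at -0.08 and -0.25, did not pass.

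TFDP1, the main dimer partner of E2F factors, averaged 633.2 ± 19.6 in shERCC6L and 549.6 ± 12.3 in shNC (SD, n = 3 each), a log2 change of 0.20 ± 0.04 (SE; limma adjusted p = 0.003). Of its other 4 probe sets, 3 rose further, by 0.29 to 0.40, and 1 did not pass. TFDP2, E2F5 and E2F6, the last a repressor that works without pocket proteins, did not pass on their brightest probe sets, at -0.04, -0.06 and 0.11. For E2F6, 2 of 5 probe sets passed, at 0.12 and 0.14, and the brightest one passed without shNC replicate 2 (adjusted p = 0.038).

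Of 5 genes that set or remove the inhibitory phosphates of CDKs, 3 were higher (60%) and 0 lower. All 5 were at or above the median level, where 32.8% of all genes were higher and 19.6% lower. CDC25A, a phosphatase that activates CDK2 and CDK1, read 226.6, 227.2 and 250.8 in shERCC6L and 185.8, 189.7 and 180.5 in shNC, a log2 change of 0.32 ± 0.05 (SE; limma adjusted p = 6.3e-04). All 3 of its probe sets passed, within 0.29 to 0.32. CDC25B and CDC25C did not pass on their brightest probe sets, at 0.08 and -0.04, and 1 of 5 probe sets of CDC25B passed. The opposing kinase gene PKMYT1 averaged 870.2 ± 25.9 in shERCC6L and 757.8 ± 48.8 in shNC, at 0.20 ± 0.05 (limma adjusted p = 0.013), with 4 of 6 probe sets higher. It lost the call without shNC replicate 3 (adjusted p = 0.052) and kept it in 13 of 15 alternative fits. Over all 15 the adjusted p in limma reached 0.056. WEE1, the nuclear kinase of this kind, averaged 896.9 ± 37.1 in shERCC6L and 824.1 ± 15.6 in shNC. Its adjusted p was 0.048 in limma at a log2 change of 0.12, and the call ended when any array other than shERCC6L replicate 1 was left out, at adjusted p between 0.059 and 0.14. It also ended with the replicate number as a block (0.063), and in the fit over all probe sets, where the adjusted p of this only WEE1 probe set was 0.052.

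The transcription factors of the late cycle moved in opposite directions. FOXM1, a forkhead factor of G2 and mitosis, read 137.2, 144 and 132.6 in shERCC6L and 188.1, 173.5 and 195 in shNC, or 74.3% of the shNC mean. The log2 change was -0.39 ± 0.05 (SE; limma adjusted p = 2.7e-04), and the other 2 probe sets fell as well, at -0.29 and -0.26. MYBL2, which encodes B-MYB, the partner of the MuvB complex, read 517.4, 545.7 and 522.6 in shERCC6L and 421.1, 414.8 and 419.1 in shNC, at 0.33 ± 0.03 (limma adjusted p = 1.1e-04). No array of either group crossed into the other for these genes. SKP2, the F-box protein that marks p27 for destruction, averaged 291.6 ± 3.28 in shERCC6L and 285.1 ± 4.72 in shNC and did not pass.

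Where a gene had more than 1 probe set, these gave a second look at its call, although they share the arrays and often the transcript. There was no second look at 7 called genes with a single probe set, CCNB1, CCNB2, CDK7, CKS2, CDKN2D, WEE1 and MYBL2. Of the 119 probe sets, 43 (36.1%) were higher and 10 (8.4%) lower after adjustment over all 44988 probe sets with 1 gene symbol, where 17% of all were higher and 12% lower. Shares among probe sets of like brightness were not counted, and most regulators were brighter than the median gene. No regulator had probe sets that passed in opposite directions. Of 19 called genes with more than 1 probe set, 8 had every probe set past the threshold in the same direction, which were CCND1, CCNE2, CDK2, CDKN1C, RBL1, E2F4, CDC25A and FOXM1. The other 11 had at least 1 probe set that did not pass. Of the 18 genes that did not pass, with log2 changes from -0.20 to 0.11, 3 had a further probe set that did (E2F3, E2F6 and CDC25B).

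**Figure D3:**
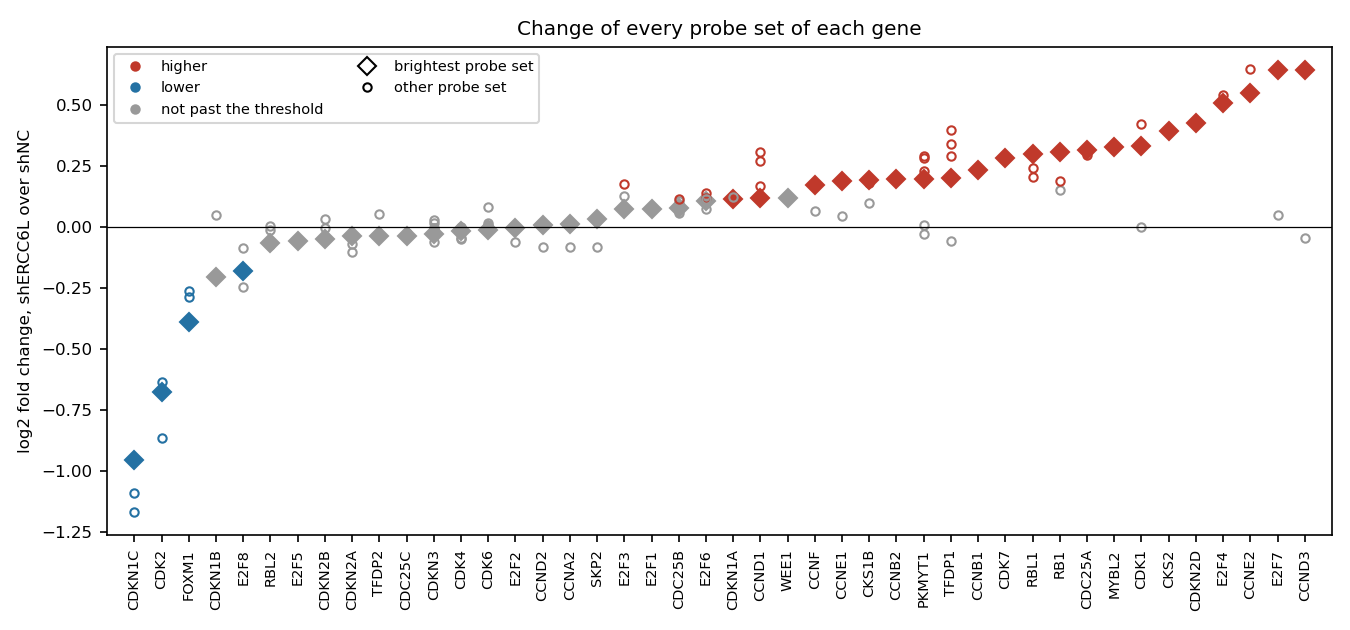
Log2 fold change, shERCC6L over shNC, of all 119 probe sets, with genes ordered by the change of the brightest probe set (diamonds) and other probe sets as open circles. Colours mark the call at an adjusted p under 0.05. The probe sets of CDK2, CDKN1C and FOXM1 stand together below 0, while CCND3, E2F7, CDK1 and TFDP1 each have a probe set near 0.

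E2F factors and the late-cycle MuvB complexes act through short promoter elements, so the promoters of the regulators were searched for their letters. The windows are RefSeq promoters of GRCh38.p14, from 250 bases before to 50 after each start site, and 35 of the 45 genes matched. CCND1, CCND2, CCNE2, CDK2, CDKN1C, E2F5, E2F8, FOXM1, PKMYT1 and WEE1 had no window. All 4 lower regulators (CDK2, CDKN1C, E2F8 and FOXM1) are among these, so no lower regulator was searched. The E2F letters were TTTCCCGC, TTTGGCGC, TTTCGCGC and TTTGCCGC, and those of the cell cycle homology region (CHR), which MuvB binds, were TTTGAA and TTCGAA, each on both strands. No promoter of a regulator had an E2F match that overlapped a CHR match. E2F letters were present for 7 of 35 regulators (20.0%), against 3.99% of 27305 genes, or 3.31% of 35116 promoters. CHR letters were present for 11 of 35 (31.4%), against 19.5% of genes, or 16.4% of promoters. Among regulators that were higher 4 of 18 held E2F letters, against 3 of 16 that did not pass, and for CHR letters the counts were 5 of 18 and 6 of 16. These shares were not tested against each other. A match is a description of letters and not a bound site.

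The 4 regulators that were higher and held E2F letters are shown (phosphatase, kinase, pocket protein and dimer partner). E2F and CHR letters are in capitals and each window is on the strand of its gene. E2F1, E2F2 and E2F3, which did not pass on their brightest probe sets, also held E2F letters and are not shown. CDC25A (chr3:48188368-48188667, minus strand) had its match starting 44 bases before the start site. CDK1 (chr10:60778228-60778527, plus strand) had E2F letters 128 bases before it and 3 CHR matches in the window shown, the one with more matches of its 2. RBL1 (chr20:37095948-37096247, minus strand) had E2F matches 26 and 16 bases before it, and TFDP1 (chr13:113584503-113584802, plus strand) a match 120 bases before it on the other strand.
CDC25A: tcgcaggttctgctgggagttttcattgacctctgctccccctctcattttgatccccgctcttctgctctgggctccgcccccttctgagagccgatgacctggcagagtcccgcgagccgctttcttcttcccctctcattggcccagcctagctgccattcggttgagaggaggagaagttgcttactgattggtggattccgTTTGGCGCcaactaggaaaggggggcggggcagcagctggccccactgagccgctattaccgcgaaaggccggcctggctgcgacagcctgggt
CDK1: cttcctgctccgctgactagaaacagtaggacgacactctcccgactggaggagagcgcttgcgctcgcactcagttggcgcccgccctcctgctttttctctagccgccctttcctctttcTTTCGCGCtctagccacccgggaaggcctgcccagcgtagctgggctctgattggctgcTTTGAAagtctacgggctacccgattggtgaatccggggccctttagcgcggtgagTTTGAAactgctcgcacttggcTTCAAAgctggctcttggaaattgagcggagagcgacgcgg
RBL1: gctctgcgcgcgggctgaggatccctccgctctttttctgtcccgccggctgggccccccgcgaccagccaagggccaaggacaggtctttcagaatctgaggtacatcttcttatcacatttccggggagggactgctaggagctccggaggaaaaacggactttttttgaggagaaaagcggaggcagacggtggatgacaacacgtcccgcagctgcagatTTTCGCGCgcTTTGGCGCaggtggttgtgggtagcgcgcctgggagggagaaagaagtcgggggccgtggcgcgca
TFDP1: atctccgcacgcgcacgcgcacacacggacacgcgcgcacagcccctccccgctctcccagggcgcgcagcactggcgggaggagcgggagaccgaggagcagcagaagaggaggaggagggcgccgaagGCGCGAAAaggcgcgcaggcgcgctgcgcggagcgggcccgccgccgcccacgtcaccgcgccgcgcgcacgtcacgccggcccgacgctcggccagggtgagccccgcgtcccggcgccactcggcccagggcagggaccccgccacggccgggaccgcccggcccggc

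CCNB2 (chr15:59104896-59105195, plus strand) and CKS2 (chr9:89310945-89311244, plus strand), genes of mitotic CDK1 complexes that were both higher, are shown for their CHR letters, in capitals. In each window the match started 29 bases before the start site.
CCNB2: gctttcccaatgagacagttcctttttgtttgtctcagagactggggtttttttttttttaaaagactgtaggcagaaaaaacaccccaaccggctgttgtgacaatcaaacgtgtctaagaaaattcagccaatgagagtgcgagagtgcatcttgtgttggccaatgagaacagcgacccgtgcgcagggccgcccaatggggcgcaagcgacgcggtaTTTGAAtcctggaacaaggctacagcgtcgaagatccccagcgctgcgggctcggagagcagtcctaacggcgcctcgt
CKS2: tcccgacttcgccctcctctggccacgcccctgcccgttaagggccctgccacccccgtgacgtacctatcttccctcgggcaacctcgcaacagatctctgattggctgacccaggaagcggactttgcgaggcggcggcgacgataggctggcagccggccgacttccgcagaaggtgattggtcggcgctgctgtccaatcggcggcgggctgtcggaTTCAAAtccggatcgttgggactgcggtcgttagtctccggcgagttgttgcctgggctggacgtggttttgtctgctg

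The target genes of these factors were also counted, on lists chosen with earlier results of these data known. Of 42 measured E2F targets of S phase, 22 were higher and 2 lower (52.4% and 4.76%, against 18.2% and 13.4% of all genes), with a median log2 change of 0.140. All 42 were at or above the median level, where 32.8% of all genes were higher and 19.6% lower. MCM10, a replication initiation factor, rose by 0.48, RRM2, a ribonucleotide reductase subunit, by 0.38 and FEN1, the flap endonuclease, by 0.36. PRIM1, a DNA primase subunit, fell by 0.45, and TYMS, thymidylate synthase, fell by 0.23. PCNA, at 0.02, and RRM1, at -0.01, did not pass.

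Of 44 measured targets of FOXM1 and MYBL2-MuvB in G2 and mitosis, none of them counted among the regulators, 33 were higher and 4 lower (75.0% and 9.09%), with a median log2 change of 0.236. These targets were all at or above the median level too. There 32.8% of all genes were higher and 19.6% lower, with a median log2 change of 0.036. All genes together gave 18.2% and 13.4%. BIRC5, which encodes survivin, averaged 2454 in shERCC6L and 1549 in shNC, the kinase gene AURKA 2051 in shERCC6L and 1380 in shNC, and CDCA3 483.2 in shERCC6L and 321.4 in shNC. HMMR fell by 0.60, ASPM fell by 0.24, and KIF20A and GAS2L3 both fell by 0.12. Without shERCC6L replicate 3 or shNC replicate 1 the count of lower targets was 2. FOXM1 itself was lower on the same arrays, as given above.

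Among 10 genes on a list of the MuvB core and its assembly, 3 were higher and 1 lower (30% and 10%). This list also holds the MYB factor gene MYBL1 and the corepressor genes HDAC1 and SIN3B. All genes gave 18.2% and 13.4%, and those at or above the median level 32.8% and 19.6%. Of the 10, 7 were at or above that level, the 3 higher ones among them, while LIN54, the lower one, was below it. MYBL1, which encodes A-MYB, rose by 0.60 ± 0.04 (SE; limma adjusted p = 1.3e-05), and LIN37 and HDAC1 rose by 0.21 and 0.24, while LIN54, the subunit that contacts the CHR, fell by 0.21. A list of 20 genes covered the turnover of cyclins and CDK inhibitors by ubiquitin ligases. It also holds the deubiquitinases USP2 and USP28 and the chaperone CRYAB. Of these 20, 18 were at or above the median level. In all, 5 were higher and 2 lower (25% and 10%), not above the shares of bright genes just given, with a median log2 change of -0.010. DTL, the substrate receptor that marks CDT1 and p21, rose by 0.46, FBXW7, the receptor for cyclin E, by 0.26 and CDC34, a ubiquitin-conjugating enzyme, by 0.20. CUL1, the scaffold of SCF ligases, fell by 0.16. Without any 1 array other than shERCC6L replicate 3, 3 were higher; the lower ones numbered 0 without shERCC6L replicate 2 or shNC replicate 3, and 1 without replicate 1 of either group.

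**Figure D4:**
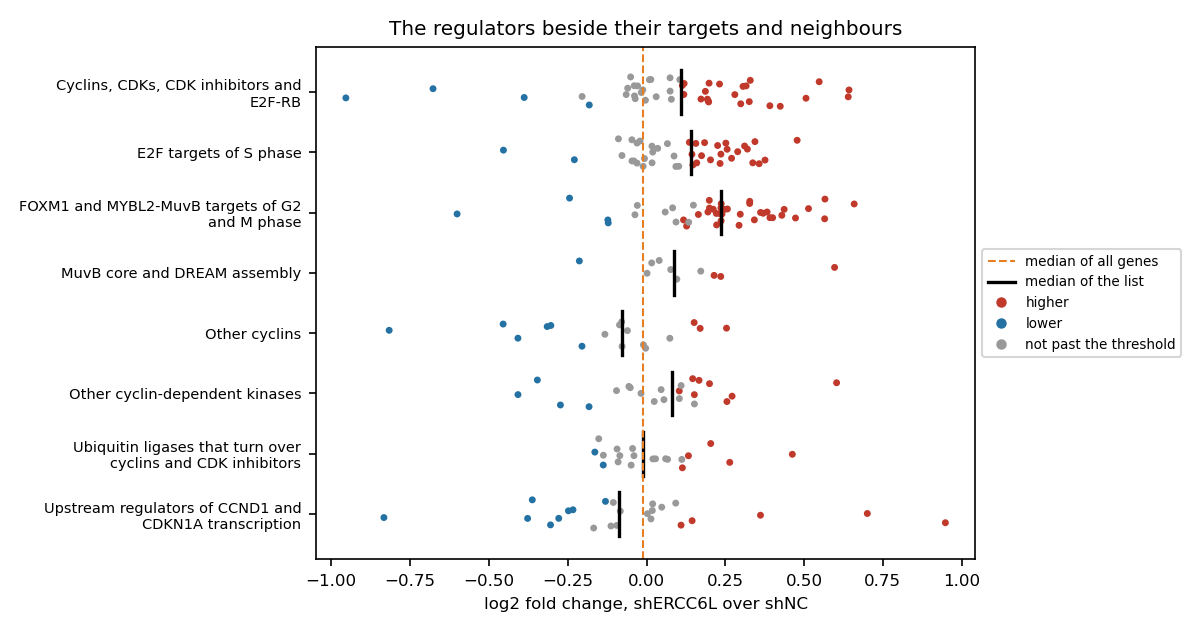
Log2 fold change, shERCC6L over shNC, of each measured gene in the regulators (top) and in 7 lists of their targets and neighbours. Points are genes coloured by their call at an adjusted p under 0.05, black bars are list medians and the dashed line is the median of all genes at -0.011. The medians of the E2F target and G2-M target lists lie at 0.140 and 0.236.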

How the data were processed

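Biotin-labelled RNA of 6 samples was hybridised to single-channel Affymetrix arrays, per the labels' protocols. The deposited values are linear intensities, 1 per probe set and array, made with Affymetrix Expression Console per the submitters' processing notes. How they were normalized is not given in the sources used here. Both regulators and lists were chosen with earlier results of these data known. The table has 49395 probe sets, of which 102 are controls. GEO's annotation of the platform pairs 44988 with a single gene symbol, 1832 with several and 2473 with none. RefSeq's gene table (GRCh38.p14) matched 44961 of the single-symbol probe sets and left their symbols as they were. Intensities were used as log2(signal + 16), which understates changes of dim genes, and the probe set brightest over all arrays stood for its gene. The groups were tested with limma (version 3.58.1, under R 4.3.3; lmFit and eBayes, both directions), with 4 residual and 4.95 prior degrees of freedom and Benjamini-Hochberg adjustment at a threshold of 0.05. The code was tested on simulated data. All array signals are given for ERCC6L and for regulators past the threshold with an absolute log2 change of at least 0.25. The 4 genes of each list with the smallest p among those that passed are named, or all where 5 or fewer passed. Array signals of other regulators, and further list genes, were picked with their values in view. The precision is limited by 3 arrays a group.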

Additional observations from a re-analysis of the deposited data

How the results depend on the processing

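The alternatives changed the model (replicate number as a block, robust estimation with an intensity trend, weights on arrays), the scaling (quantiles or medians), the probe sets (averaged, or the dimmest genes left out), the pseudocount (1 or 64) and the arrays (each left out in turn). Of 44 regulators, 35 kept their side of the threshold in all 15 settings that could be fitted for them, 21 of them called. The others were CCND1, CCNE1, CDKN1A, WEE1 and PKMYT1, which lost calls, and CDKN1B, E2F3, E2F6 and CDC25B, which gained them. Calls held in 9 of 15 settings for CCND1 and CCNE1 each, 7 for CDKN1A, 6 for WEE1 and 13 for PKMYT1. CDKN1B was not called in 12 of 15, E2F6 in 13, and E2F3 and CDC25B each in 14. No call changed direction. The count of higher regulators ran from 17 to 25 and that of lower ones from 4 to 5. With the replicate block 20 were higher and 4 lower, with quantile normalization 18 and 5, and with median centring 21 and 4. Median centring gave a median log2 change of all genes of -0.0037, against -0.0105 in the main fit. Quantile normalization gave a median of 0.0798 for the regulators, against 0.1096 in the main fit. Of all genes, 2958 were then higher and 2652 lower, against 3302 and 2431 in the main fit. Deviations of same-numbered arrays from their group means had correlations of 0.24, -0.14 and -0.01. Differently numbered arrays were not compared, so these values do not settle whether the arrays were paired. The main fit did not read the numbers as pairs. The block ended the calls of CDKN1A (limma adjusted p = 0.058) and WEE1 (0.063).

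Some small list counts moved by over 1.5 times. On the ubiquitin ligase list 3 were higher with the replicate block, quantile normalization, the intensity trend or a pseudocount of 1, and 4 were lower with quantile normalization; over the fits without 1 array the counts were 3 to 4 higher and 0 to 3 lower. Lower G2-M targets numbered 2 with a pseudocount of 1 and 2 to 3 without 1 array. Higher genes on the MuvB list numbered 5 with probe sets averaged, and higher genes on the list of other CDKs 4 to 7 without 1 array. The cause was not tested.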

Other observations

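Of 17 measured genes on a list of cyclins outside the core cycle, which also holds the cyclin D-binding protein gene CCNDBP1, 3 were higher and 6 lower (17.6% and 35.3%), with a median log2 change of -0.079. Of all genes 18.2% were higher and 13.4% lower, and of those at or above the median level 32.8% and 19.6%. CCNY, the membrane-bound partner of CDK14 and CDK16, averaged 253 ± 13.2 in shERCC6L and 457.8 ± 24.7 in shNC (SD, n = 3 each), a log2 change of -0.82 ± 0.05 (SE; limma adjusted p = 4.7e-06). CCNC, which pairs with CDK8 and CDK19 in the Mediator kinase module, fell by 0.45, and the kinases CDK8 and CDK19 fell by 0.27 and 0.35, so that the cyclin and both kinases of that module were lower. CCNG2, a cyclin of arrested cells, fell by 0.41, and CCNK, the partner of CDK12 and CDK13, rose by 0.25. CCNH fell by 0.30 and MNAT1 rose by 0.26, both subunits of the CDK-activating kinase beside CDK7, which rose. Of 22 measured genes of other CDKs and their binding proteins, 8 were higher and 4 lower (36.4% and 18.2%). Of the 22, 19 were at or above the median level, where 32.8% of all genes were higher and 19.6% lower. CABLES2 rose by 0.60 and CDK17 fell by 0.41. The higher ones numbered 4 without shERCC6L replicate 2 or shNC replicate 3, and 5 without shERCC6L replicate 3.

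Of 24 genes known to act upstream of CCND1 and CDKN1A transcription, 5 were higher and 8 lower (20.8% and 33.3%, beside 32.8% and 19.6% of genes at or above the median level), with a median log2 change of -0.089. FOSL1, an AP-1 subunit, averaged 866.3 ± 36 in shERCC6L and 441.1 ± 8.8 in shNC (SD, n = 3 each), and ETS2 263.6 ± 9.55 in shERCC6L and 156.5 ± 16.7 in shNC. ID3, which blocks DNA binding by helix-loop-helix factors, fell by 0.83, its relatives ID1 and ID2 fell by 0.30 and 0.38, and TCF7L2, a WNT pathway factor, fell by 0.36.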
